A study of Mus musculus with 24 samples.

Results

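The 9 genes described here code for transcription factors of the macrophage lineage. They are Spi1 (written Sfpi1 in the files), Cebpa, Cebpb, Cebpd, Maf, Runx1, Mef2c, Tfec (written Tcfec in the files) and Mitf. They were taken by name from the array's gene annotation, with every probe that carries the name. No measured value enters this rule, although the set was chosen with earlier results of these data known. The array holds 18 probes for them, of which 15 passed the filter on dim probes, and all 9 genes were tested among 15098 genes in all. RNA came from RAW264.7 cells, a mouse macrophage-like line, carrying an overexpression construct either for Tbc1d23 or, as the control, for chloramphenicol acetyltransferase (CAT). There was 1 line per construct, and both were grown with G418. Cells were exposed to lipopolysaccharide (LPS) at 20 ng/ml for 1, 3 or 5 h or left unexposed (0 h), which gives 8 groups of 3 one-colour Agilent arrays.

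PU.1, the Ets-family protein made from Spi1, is the factor on which the macrophage fate depends, and it binds at a large part of macrophage enhancers together with C/EBP and Runx proteins. C/EBPα, from Cebpa, serves the early myeloid programme. C/EBPβ and C/EBPδ, from Cebpb and Cebpd, are known for their induction by bacterial products. Runx1 acts in blood stem cells and progenitors and prepares the Spi1 locus. Maf codes for c-Maf, a basic leucine zipper factor known for driving Il10 and for restraining macrophage division. Mef2c is a MADS-box factor of the myeloid and B lineages. Tfec and Mitf belong to the MiT family, which acts on lysosomal and osteoclast genes, and Tfec is the member found mostly in macrophages. The comparison asks whether these factors follow the macrophage surface genes, many of which were lower in the line labelled Tbc1d23.

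On each array 42.2 to 69.7% of spots were well above background, and the 75th percentile of the signal was 156.6 to 362.6 units. All levels below are log2 of the signal over that array's 75th percentile, so a level of 0 lies at the percentile, and levels of different probes are not compared. The Tbc1d23 transcript itself was 3.22 ± 0.26 in the line labelled Tbc1d23 and 3.19 ± 0.25 in the CAT line at 0 h (SD, n = 3 each) with its brightest probe (A_51_P223575), which was not called different at any time. A fainter Tbc1d23 probe (A_52_P448220) was higher in the line labelled Tbc1d23 by 0.50 ± 0.09 averaged over times (limma, adjusted p = 5.02e-05). That average takes arrays of the same slide as independent. By time, this probe differed by 0.35 and 0.17 at 0 and 1 h, neither called, and by 1.00 and 0.49 at 3 and 5 h, both called. Because the brightest probe does not separate the lines, the line is called "labelled Tbc1d23" throughout. The 3 slides of the line labelled Tbc1d23 each hold 1 replicate at all 4 times, as do the 3 CAT slides, and only 1 slide labelled Tbc1d23 (replicate 3) lies in the same run of slide numbers as the CAT slides.

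The 6 probes shown here carry much of the comparison below, either as a gene's brightest probe or as one that differs from it, and each is open in at least 1 reading frame. They run 5′ to 3′ on the sense strand, with mm9 positions from the files. The Spi1 probe is the array's only one for that gene, and it spans an exon junction on chromosome 2 (chr2:90939665-90953452, plus strand). The Cebpa and Cebpb probes lie in their genes (chr7:35905361-35905420 and chr2:167515309-167515368, plus strand), in the part that codes for the leucine zipper. The Runx1 probe (chr16:92614003-92644455, minus strand) and the Mitf probe (chr6:97956187-97960443, plus strand) also cross exon junctions, and the Tfec probe lies at chr6:16795377-16795436 on the minus strand.
Spi1 A_52_P498086: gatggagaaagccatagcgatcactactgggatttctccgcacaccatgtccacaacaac
Cebpa A_51_P214087: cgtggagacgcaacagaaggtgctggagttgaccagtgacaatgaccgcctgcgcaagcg
Cebpb A_52_P605846: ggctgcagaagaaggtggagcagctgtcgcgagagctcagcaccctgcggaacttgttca
Runx1 A_52_P202358: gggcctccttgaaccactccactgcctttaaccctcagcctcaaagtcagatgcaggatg
Tfec A_52_P658679: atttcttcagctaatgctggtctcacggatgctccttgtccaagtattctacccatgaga
Mitf A_52_P100140: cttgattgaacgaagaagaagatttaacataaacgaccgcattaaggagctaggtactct
The Cebpa and Cebpb probes hold 36 G or C bases of 60 each, the Spi1 probe 30, the Runx1 probe 33, the Tfec probe 27 and the Mitf probe 23.

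Before LPS, 6 of the 9 factors were lower in the line labelled Tbc1d23 than in the CAT line, 2 were higher and 1 was not called. By each gene's brightest probe, Spi1, Cebpa, Maf, Runx1, Tfec and Mitf were lower and Cebpb and Cebpd were higher, while Mef2c was not called. Calls rest on limma's fit over all genes tested, with a Benjamini-Hochberg threshold of 0.05, and this background is wide: 45.3% of all genes were called at 0 h, 20.2% of them lower and 25.1% higher, as shares of all genes tested. The members' median log2 difference was -1.04, beside a median over all genes of 0.09. Where groups are said to be apart below, the share of all genes whose groups are apart was not counted. The design text calls the replicates biological without naming separate cultures, so the p-values reflect how far these arrays differ, which may be technical. With 3 arrays on each side, the smallest p an exact two-sided permutation test allows is 0.1. In bulk RNA, fewer cells with a transcript and less of it per cell cannot be told apart. Construct and line also cannot be told apart, since each construct is present in 1 line.

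**Figure D1:**
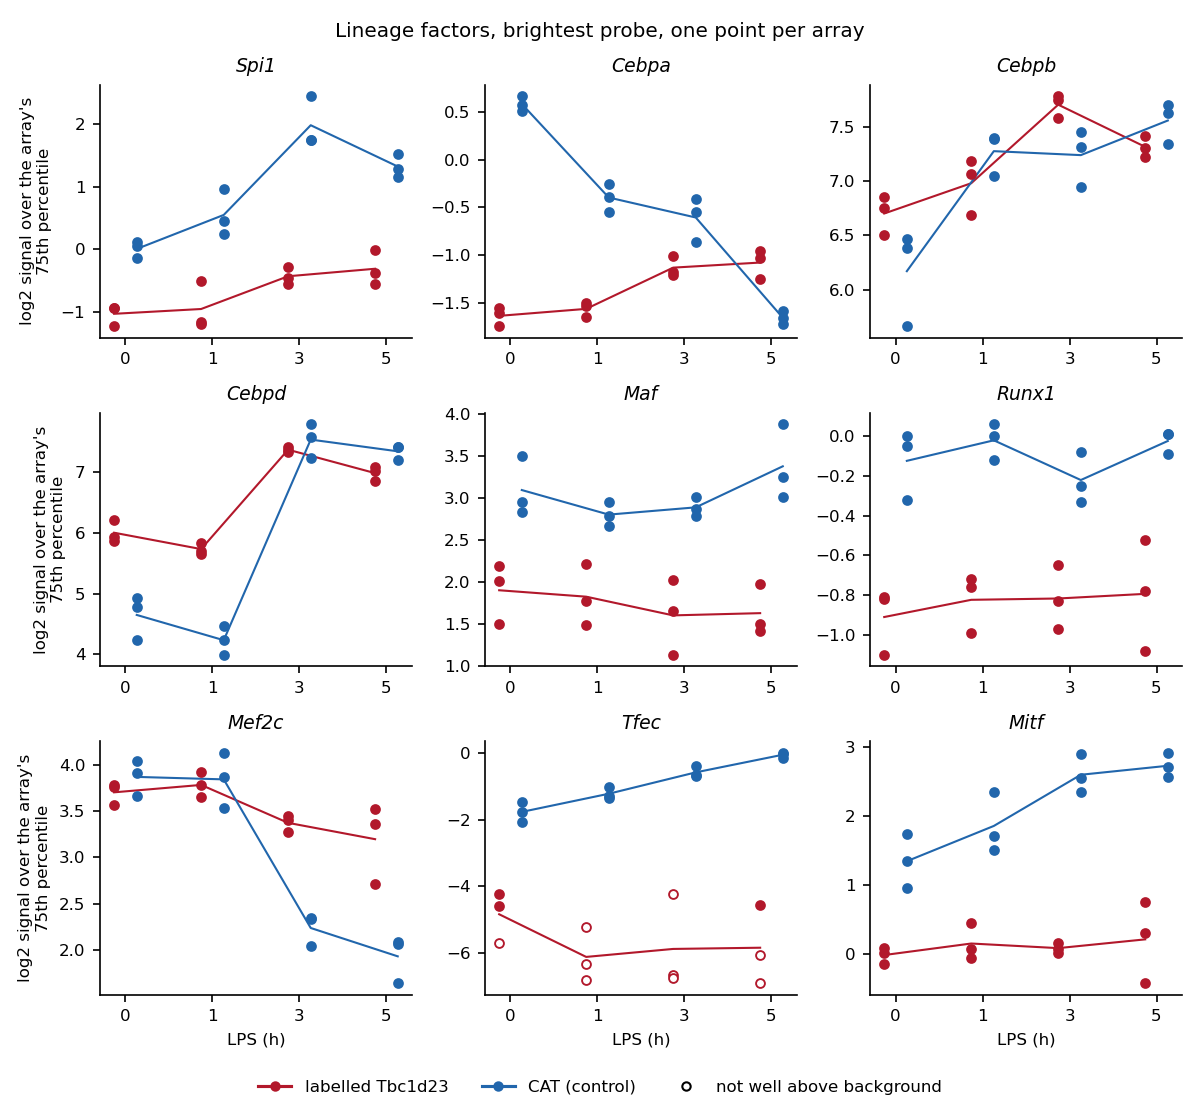
Level of each lineage factor by its brightest probe on every array, as log2 of the signal over the array's 75th percentile, against hours of LPS, with lines through the group means. Points of the line labelled Tbc1d23 (red) lie below all CAT points (blue) of the same time for Spi1, Maf, Runx1, Tfec and Mitf at all 4 times, and Cebpa crosses between 3 and 5 h. The share of all genes apart in this way was not counted, and 45.3 to 53.5% of all genes were called between the lines. Open points were not well above background.

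Spi1, the gene for PU.1, read -1.23, -0.93 and -0.93 in the line labelled Tbc1d23 at 0 h, against 0.11, -0.14 and 0.05 in the CAT line. The groups do not overlap, and the replicates of each line lie close together. The log2 difference was -1.04 ± 0.22 (SE of the limma fit, n = 3 per group; adjusted p = 0.000906), a 2.05-fold lower level. After LPS the line difference was -1.50 at 1 h, -2.41 at 3 h and -1.64 at 5 h, all called. Its change from 0 h was called at 3 h and not at 1 h (-0.46, adjusted p = 0.964) or 5 h (-0.60, adjusted p = 0.21). At 3 h the level was -0.56, -0.45 and -0.28 in the line labelled Tbc1d23, against 1.75, 1.75 and 2.45 in the CAT line. All 12 arrays labelled Tbc1d23 lay below the CAT array of the same time with the lowest level. Within the run of slides that holds both lines, where the line labelled Tbc1d23 has 1 array per time whose spread is taken from the CAT arrays, the difference was -0.94 at 0 h (adjusted p = 0.0435) and -2.26 at 3 h (adjusted p = 0.000308).

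The C/EBP genes did not move together. Cebpa was 4.67-fold lower in the line labelled Tbc1d23 at 0 h, and the difference turned round by 5 h. With the brightest probe (A_52_P168567), Cebpa read -1.75, -1.56 and -1.61 in the line labelled Tbc1d23 at 0 h, against 0.67, 0.58 and 0.51 in the CAT line. At 5 h it read -1.25, -0.96 and -1.03 in the line labelled Tbc1d23, against -1.59, -1.66 and -1.73 in the CAT line. The groups are apart at both times, with the CAT line above at 0 h and below at 5 h. The log2 difference was -2.22 ± 0.12 at 0 h (adjusted p = 3.13e-11), -1.17 at 1 h, -0.53 at 3 h and 0.58 ± 0.12 at 5 h (adjusted p = 0.000347). Within the shared run of slides the values were -2.19 at 0 h and 0.63 at 5 h, both called. Scaling each array to its median ended the calls at 3 and 5 h (-0.49 and 0.33, adjusted p = 0.28 and 0.476), and the mean of both probes that at 3 h (-0.15, adjusted p = 0.501).

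Cebpb, the C/EBP gene best known for induction by LPS, was 6.50, 6.86 and 6.75 in the line labelled Tbc1d23 at 0 h, against 5.66, 6.47 and 6.38 in the CAT line. The groups are apart by a small gap, and CAT replicate 1 stands low. The log2 difference of 0.53 ± 0.20 was called (adjusted p = 0.0336), but not without CAT replicate 1 at 0 h (0.27, adjusted p = 0.239), without the replicate 2 or 3 labelled Tbc1d23 at 0 h (0.45 and 0.51, adjusted p = 0.114 and 0.0767), within the shared run of slides (0.58, adjusted p = 0.184) or with slides fitted as a random block (adjusted p = 0.0665). Scaling each array to its median gave -0.01 instead, and the mean of both probes gave 0.13, neither called. The differences at 1, 3 and 5 h were -0.30, 0.46 and -0.24 and were not called, the value at 3 h with an adjusted p of 0.0552. With the replicate number as a block it was called (adjusted p = 0.0201). For line differences, however, that block pairs same-numbered arrays of different lines, which did not deviate together.

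Cebpd, a C/EBP gene of the acute phase response, was higher in the line labelled Tbc1d23 before LPS. Its only probe read 5.93, 6.22 and 5.86 in the line labelled Tbc1d23 at 0 h, against 4.23, 4.93 and 4.78 in the CAT line. All arrays labelled Tbc1d23 lie above all CAT arrays. The log2 difference was 1.36 ± 0.17 at 0 h (adjusted p = 3.03e-06) and 1.5 ± 0.17 at 1 h (adjusted p = 9.46e-07). At 3 and 5 h it was -0.17 and -0.36, neither called (adjusted p = 0.445 and 0.085). The value at 5 h had an adjusted p of 0.0413 without CAT replicate 1 at 0 h. Within the shared run of slides the difference was 1.22 at 0 h and 1.47 at 1 h, both called. Scaling each array to its median gave 0.82 at 0 h, without a call (adjusted p = 0.0659).

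Maf, by its brightest probe (A_52_P306079), read 2.01, 1.5 and 2.19 in the line labelled Tbc1d23 at 0 h, against 3.50, 2.84 and 2.95 in the CAT line. The groups are apart, as they are at the other 3 times. The log2 difference was -1.19 ± 0.27 at 0 h (adjusted p = 0.00122), -0.98 at 1 h, -1.29 at 3 h and -1.75 at 5 h, all called. None of the other Maf probes was well above background in the CAT line at 0 or 1 h. The Maf difference at these times therefore rests on the brightest probe alone. Replicate 3 of the line labelled Tbc1d23, the one that shares a run with the CAT slides, was the highest of its group at each time. Within that run the differences were -0.90, -0.59 and -0.86 at 0, 1 and 3 h and were not called (adjusted p = 0.0526, 0.185 and 0.0531), and the difference of -1.41 at 5 h was called (adjusted p = 0.00507).

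Runx1 was lower in the line labelled Tbc1d23 by a like amount at every time. Its exon-spanning probe (A_52_P202358) read -0.82, -1.10 and -0.81 in the line labelled Tbc1d23 at 0 h, against -0.32, 0.00 and -0.05 in the CAT line. The groups are apart at every time. The log2 differences were -0.79, -0.81, -0.59 and -0.77 at 0, 1, 3 and 5 h (SE 0.14 each), all called, and -0.69, -0.74, -0.75 and -0.76 within the shared run of slides, all called too. With scaling to the array median the value at 3 h was not called (-0.56, adjusted p = 0.186). The other Runx1 probe (A_51_P206585) gave -0.63, -0.73 and -0.46 at 0, 1 and 3 h, all called, and -0.26 at 5 h, which was not (adjusted p = 0.184).

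Mef2c stood apart from the other factors, with no called difference before LPS and a higher level in the line labelled Tbc1d23 after it. It read 3.57, 3.78 and 3.76 in the line labelled Tbc1d23 at 0 h, against 3.91, 4.04 and 3.66 in the CAT line, and the groups overlap. At 5 h it read 3.52, 2.71 and 3.36 in the line labelled Tbc1d23, against 1.64, 2.06 and 2.09 in the CAT line. The groups are then apart, with replicate 2 of the line labelled Tbc1d23 lowest of its group. The log2 difference was -0.17 ± 0.19 at 0 h and -0.06 at 1 h, neither called, then 1.14 ± 0.19 at 3 h (adjusted p = 6.61e-05) and 1.27 ± 0.19 at 5 h (adjusted p = 1.82e-05).

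With their brightest probes both MiT genes were lower in the line labelled Tbc1d23 at every time. By each gene's brightest probe the fitted difference of Tfec was the widest of the 9 at each time. With that Tfec probe, however, most arrays labelled Tbc1d23 were near background. The brightest Tfec probe (A_52_P127925) read -4.60, -5.70 and -4.24 in the line labelled Tbc1d23 at 0 h, against -2.06, -1.78 and -1.46 in the CAT line. At 5 h it read -4.57, -6.07 and -6.92 in the line labelled Tbc1d23, against 0.01, -0.02 and -0.13 in the CAT line. Of the 12 arrays labelled Tbc1d23, 2 at 0 h and 1 at 5 h were well above background, while all 12 CAT arrays were. The fitted log2 difference was -3.08 ± 0.60 at 0 h (adjusted p = 0.000405) and -5.81 ± 0.60 at 5 h (adjusted p = 1.95e-07). At 1 and 3 h no array labelled Tbc1d23 was well above background with this probe. By this probe alone, Tfec was thus at least 9.4-fold and at least 14.2-fold lower there (adjusted p = 2.67e-06 and 7.21e-07). The other Tfec probe, given below, was not called at these times. For such a bound the dim arrays stand at their own signal or, where that was smaller, at the smallest signal well above background on the same array. An adjusted p printed with a bound is limma's for the fitted difference and does not test the bound.

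Mitf, by the mean of 10 spots of its brightest probe (A_51_P364274), read 0.01, -0.14 and 0.09 in the line labelled Tbc1d23 at 0 h, against 0.95, 1.73 and 1.35 in the CAT line. At 5 h it read 0.30, -0.42 and 0.76 in the line labelled Tbc1d23, against 2.91, 2.70 and 2.56 in the CAT line. The groups are far apart at both times. The log2 differences were -1.36 ± 0.26, -1.70, -2.51 and -2.51 at 0, 1, 3 and 5 h, all called, and -1.25, -1.40, -2.43 and -1.96 within the shared run of slides, all called too. The fainter exon-spanning Mitf probe (A_52_P100140) was well above background on 11 of 12 CAT arrays and 2 of 12 arrays labelled Tbc1d23. Its difference was -0.82 at 0 h, not called, -2.06 ± 0.55 at 5 h (adjusted p = 0.004), and at least 1.87-fold and 2.05-fold at 1 and 3 h.

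At 1 and 3 h of LPS, 6 of the 9 factors were lower in the line labelled Tbc1d23 and 1 was higher, Cebpd at 1 h and Mef2c at 3 h. At 5 h 5 were lower (Spi1, Maf, Runx1, Tfec and Mitf) and 2 were higher (Cebpa and Mef2c). Of all genes, 45.7% were called at 1 h, 51% at 3 h and 53.5% at 5 h, of which the lower ones made up 21.2, 23.7 and 23.5% of all genes and the higher ones 24.6, 27.4 and 30%. The members' medians were -0.98, -0.59 and -0.77, beside medians over all genes of 0.06, 0.05 and 0.10. Averaged over times, 6 factors were lower and 2 higher (Cebpd and Mef2c), where 70.7% of all genes were called, 32.3% lower and 38.3% higher. With each array scaled to its median, neither of these 2 was called (0.36 and 0.32, adjusted p = 0.0672 and 0.0785). The average over times takes arrays of the same slide as independent. With slides fitted as a random block, 54.3% of all genes were called for it, and no factor's call changed. The counts at 0 h were the same without the slide of replicate 1 labelled Tbc1d23, whose arrays at 0 and 5 h had the most spots above background (69.7 and 62.3%). Scaling to the array median moved the median of all genes at 0 h to -0.45 and the called genes to 867 higher and 3798 lower, against 3788 higher and 3044 lower with the 75th percentile. Quantile normalization gave 3261 higher and 4151 lower.

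The macrophage surface genes, receptors and adhesion molecules that mark the cell type, were lower by about the same median. Of the 34 listed, 32 were tested. Of these, 20 were lower and 5 higher in the line labelled Tbc1d23 at 0 h, where 20.2 and 25.1% of all genes were. The surface genes' median log2 difference was -1.03, beside the factors' -1.04. Without the slide of replicate 1 labelled Tbc1d23, 18 were lower. The lowest were Clec7a, which codes for the glucan receptor Dectin-1 (-7.17 ± 0.13), Clec4a2, a C-type lectin (-4.41 ± 0.13), the scavenger receptor gene Cd36 (-4.16 ± 0.12) and the inhibitory receptor gene Pirb (-4.06 ± 0.26). The highest were the lectin genes Clec4d (1.41) and Clec4e (1.06), the scavenger receptor gene Msr1 (1.34) and the LPS co-receptor gene Cd14 (0.87), all called. Both lists therefore held lower and higher genes before LPS.

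**Figure D2:**
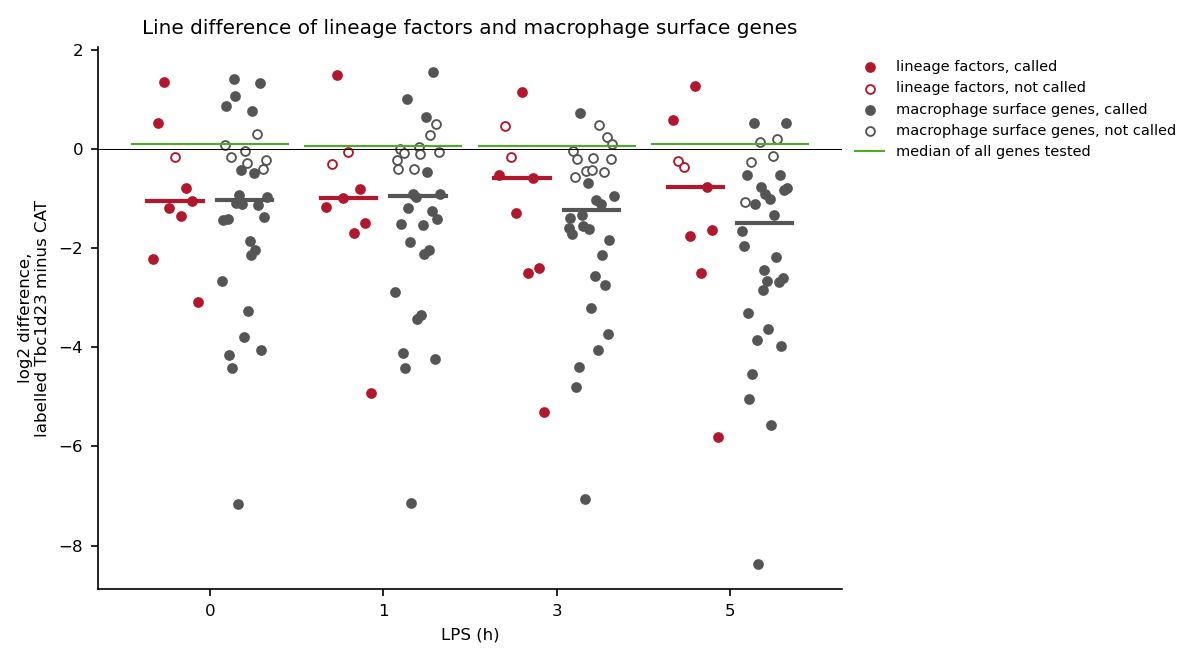
Log2 difference, line labelled Tbc1d23 minus CAT, of the 9 lineage factors (red) and the 32 macrophage surface genes tested (grey) at each time, with thick bars at the medians of the lists and a green line at the median of all genes. Filled points were called; the medians of both lists lie below 0 at all 4 times, while the median of all genes stays between 0.05 and 0.10.

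With LPS the surface genes' medians moved to -0.94 at 1 h, -1.22 at 3 h and -1.49 at 5 h. The lower ones were 19, 20 and 25 of 32 at these times, and the higher ones 3, 1 and 2. The factors thus had 6, 6 and 5 of 9 lower where the surface genes had 19, 20 and 25 of 32, beside 21.2, 23.7 and 23.5% of all genes. Both lists were chosen with earlier results of these data known. All 4 surface genes named as lowest were still lower at 5 h, from -3.97 for Pirb to -8.38 for Clec7a. Of those named as higher before LPS, Clec4d was still higher at 5 h (0.53), and Msr1 (-0.52), Clec4e (-1.11) and Cd14 (-0.52) were lower, all called. Csf1r, the gene for the receptor of the growth factor CSF1 and a known PU.1 target, was chosen after its values were seen: it differed by -0.92 ± 0.24 at 0 h (adjusted p = 0.00372) and by 0.15 at 5 h, where it was not called.

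Relatives of the members by protein family showed both directions. Of 17 listed, 14 were tested, and 4 were lower and 5 higher at 0 h, with a median of 0.04. All genes showed both directions too, with 20.2% lower, 25.1% higher and a median of 0.09. The lower ones included the MiT genes Tfeb (-1.68) and Tfe3 (-0.46), and Mef2d (-0.39). The higher ones included the small Maf gene Maff (2.93 ± 0.24), Ddit3, which codes for the stress-induced C/EBP protein CHOP (1.95 ± 0.19), Runx2 (1.1) and Cebpg (0.75). All 4 MiT genes were thus lower before LPS by their brightest probes. At 5 h Tfeb was still lower (-1.27), Tfe3 was not called (-0.22), and Runx2 was higher by 3.08 ± 0.21.

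Among 19 tested of 20 other factors of myeloid gene control, 9 were lower and 6 higher at 0 h, with a median of -0.47. The shares of all genes were 20.2% lower and 25.1% higher. The zinc finger genes Klf4 (-4.15 ± 0.18) and Egr2 (-2.99 ± 0.27), the nuclear receptor gene Pparg (-2.15) and the interferon regulatory factor gene Irf8 (-1.36), all known in monocytes or macrophages, were lowest. Highest were Gata2, a factor of blood progenitors and mast cells, Ets2 (3.23 ± 0.23), the repressor gene Gfi1 (2.03) and Ikzf1 (0.88), which codes for the lymphoid factor Ikaros. For Gata2 no CAT array was well above background at 0 h, and 2 of 3 arrays labelled Tbc1d23 were. The bound on its higher level was 3.46-fold (limma on the fitted difference, adjusted p = 1.29e-08). That bound is not strict, since the remaining array labelled Tbc1d23 enters at its own signal.

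Osteoclast and MiT-linked genes were mostly lower beside Tfec and Mitf. Of 12 listed, 11 were tested, and 6 were lower and 1 higher at 0 h, with a median of -1.46. Among all genes 20.2% were lower and 25.1% higher there, and this list too was chosen with earlier results known. The fusion gene Ocstamp differed by -2.07. Acp5, which codes for tartrate-resistant acid phosphatase, and the cathepsin K gene Ctsk were each well above background on 1 of 3 arrays labelled Tbc1d23 at 0 h, so their fitted differences of -6.48 ± 0.43 and -2.58 ± 0.75 rest on signals near background, and all 3 genes were called. Atp6v0d2, a proton pump subunit gene of osteoclasts, was not well above background on any array labelled Tbc1d23 at 0 h and was at least 5.06-fold lower (adjusted p = 1.07e-10). The higher gene was Dcstamp, also of cell fusion (1.63), which was lower at 5 h (-0.53). At 3 and 5 h 8 of the 11 were lower and none was called higher, where 23.7 and 23.5% of all genes were lower and 27.4 and 30% higher.

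Markers of other cell types also differed between the lines at 0 h. Of 7 tested lymphoid markers (of 11 listed), 5 were higher in the line labelled Tbc1d23 and none was called lower. The shares of all genes were 25.1% higher and 20.2% lower. The markers' summed level was 15.9 to 22 times the arrays' 75th percentile in the line labelled Tbc1d23 and 1.24 to 1.81 times in the CAT line. Sums here add the signals of different probes, so the brightest probes weigh most in them. With LPS, 4, 3 and 3 of the 7 were higher and 1, 2 and 3 were lower at 1, 3 and 5 h. The shares of all genes at these times were 24.6, 27.4 and 30% higher and 21.2, 23.7 and 23.5% lower. Of the 5 higher at 0 h, Cd79b was well above background on only 1 array labelled Tbc1d23 there, and it was lower at 3 and 5 h. At 0 h Dntt, the terminal transferase gene of lymphoid precursors, was higher by 5.00 ± 0.42, and Vpreb1, of the surrogate light chain of precursor B cells, at least 19.9-fold. Cd3e was not called (-0.97), and Cd79a, Pax5, Ebf1 and Nkg7 did not pass the filter on dim probes. The summed level of the surface genes was 859 to 1020 in the line labelled Tbc1d23 and 1120 to 1380 in the CAT line. Dendritic markers, 4 of 6 tested, summed to 0.483 to 0.887 and 1.55 to 2.05, with Itgax lower (-2.53). Granulocyte markers (4 of 8 tested) summed to 0.448 to 0.935 and 0.198 to 0.536, erythroid markers (4 of 5) to 0.38 to 0.814 and 0.389 to 0.489, and fibroblast and epithelial markers (3 of 9) to 0.109 to 0.487 and 0.401 to 0.484, in the line labelled Tbc1d23 and the CAT line. The part of these markers in the factors' differences was not tested.

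More of the factors were called for LPS in the CAT line than in the line labelled Tbc1d23. In the line labelled Tbc1d23, 0, 3 and 2 of the 9 factors were called at 1, 3 and 5 h, where 1.66, 6.78 and 6.35% of all genes were. At 1 h 1 factor had an unadjusted p under 0.05 in limma's fit. These counts take each gene's brightest probe. The other Cebpb probe (A_52_P605846) was called in the line labelled Tbc1d23 at all 3 times, by 0.77, 1.19 and 0.72 (adjusted p = 0.00183, 4.21e-06 and 0.00152, over probes), and by 1.37, 1.08 and 1.56 in the CAT line. In the CAT line 2, 6 and 7 were called, where 7.53, 34.8 and 41.6% of all genes were. Responses of a line at different times share its 0 h arrays, and so do the line differences and the responses compared here. The replicates of a line share a slide across times, and with the replicate as a block 5 factors were called in the line labelled Tbc1d23 at 5 h, where 15.6% of all genes were.

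**Figure D3:**
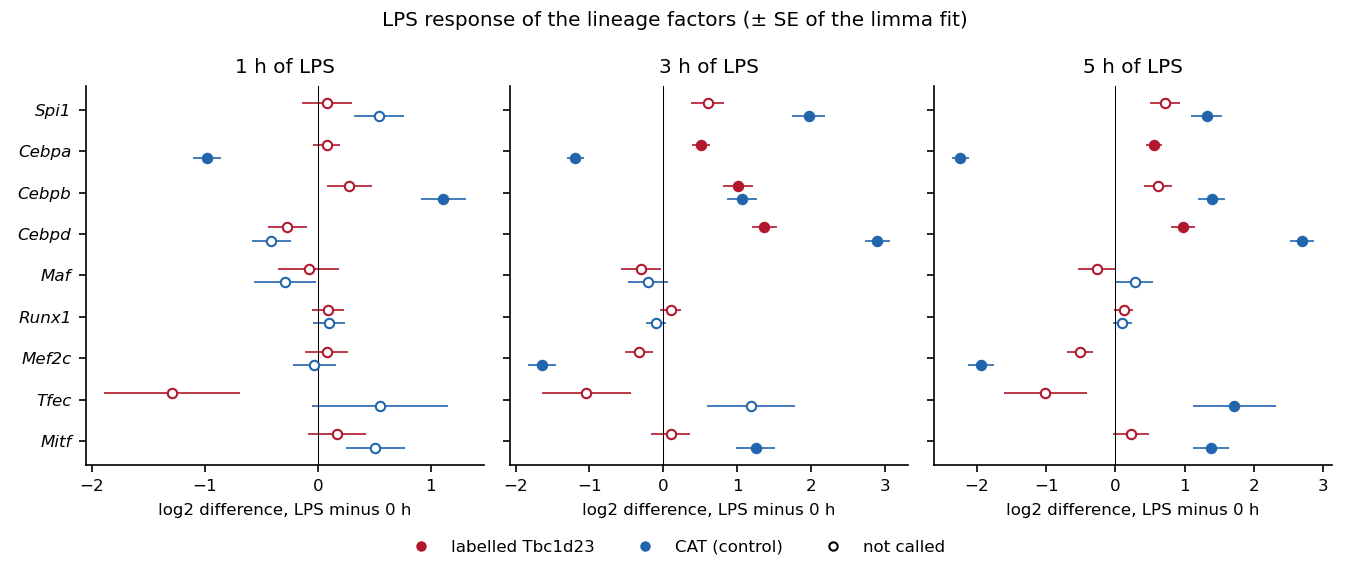
Log2 difference between LPS and 0 h (± SE of the limma fit) of each factor at 1, 3 and 5 h, in the line labelled Tbc1d23 (red) and the CAT line (blue); filled points were called. At 3 and 5 h the CAT points of Spi1, Cebpb, Cebpd, Maf, Tfec and Mitf lie right of the red ones. Those of Cebpa, Runx1 and Mef2c lie left of them, and not all of these gaps were called.

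In the CAT line, Spi1 was higher by 1.97 ± 0.22 at 3 h and 1.32 ± 0.22 at 5 h, Cebpb by 1.11, 1.07 and 1.39 at 1, 3 and 5 h, and Cebpd by 2.90 ± 0.17 at 3 h and 2.70 ± 0.17 at 5 h. Mitf was higher by 1.25 at 3 h and 1.38 at 5 h, and Tfec by 1.72 ± 0.60 at 5 h, all called. The call for Tfec at 5 h was lost without the filter on dim probes (adjusted p = 0.0555) and without any 1 of the CAT arrays of 0 h replicates 1 and 2 or 5 h replicates 1, 2 and 3 (1.57 to 1.76, adjusted p 0.0572 to 0.0875). Cebpa fell by 0.98, 1.19 and 2.24 at 1, 3 and 5 h, and Mef2c fell by 1.64 at 3 h and 1.94 at 5 h. The calls of Cebpb and Cebpa at 1 h were lost with scaling to the array median (1.24 and -0.85, adjusted p = 0.0582 and 0.359). Maf and Runx1 were not called at any time with their brightest probes. The other Runx1 probe (A_51_P206585) was called at 3 h, by 0.62 in the line labelled Tbc1d23 (adjusted p = 0.0256) and 0.44 in the CAT line (adjusted p = 0.0388). With the replicate as a block the Spi1 response at 1 h (0.54) was called too (adjusted p = 0.029).

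In the line labelled Tbc1d23, Cebpb was higher by 1.01 ± 0.20 at 3 h, Cebpd by 1.37 ± 0.17 at 3 h and 0.98 ± 0.17 at 5 h, and Cebpa by 0.51 ± 0.12 at 3 h and 0.56 ± 0.12 at 5 h. The Cebpa call at 3 h was lost without replicate 1 labelled Tbc1d23 at 0 h or at 3 h (0.45 each, adjusted p = 0.0542 and 0.0567). Spi1 changed by 0.60 at 3 h and 0.72 at 5 h without a call, and with the replicate as a block both were called (adjusted p = 0.0178 and 0.0061), as were Cebpb (0.62, adjusted p = 0.0163) and Mef2c (-0.51, adjusted p = 0.0499) at 5 h. Tfec and Mitf, which were called in the CAT line at 5 h, read -1.01 and 0.23 in the line labelled Tbc1d23, neither called. Within the shared run, where the line labelled Tbc1d23 has 1 array per time, none of its 5 calls made without a block was kept (adjusted p 0.0539 to 0.661). The values were 0.39 and 0.58 for Cebpa, 1.5 and 1.00 for Cebpd at 3 and 5 h, and 0.99 for Cebpb at 3 h. Scaling to the array median ended the calls of Cebpa at 3 and 5 h and of Cebpd at 5 h with larger values (1.06, 0.82 and 1.24), where the median of all genes was 0.506 at 3 h and 0.23 at 5 h.

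The difference between the LPS responses, line labelled Tbc1d23 minus CAT, was called for 1, 5 and 5 of the 9 factors at 1, 3 and 5 h, where 2.4, 16.7 and 23.2% of all genes were. Cebpa had the largest positive value, 1.06 ± 0.16 at 1 h, 1.70 at 3 h and 2.81 ± 0.16 at 5 h (adjusted p = 3.12e-10). With its brightest probe it fell in the CAT line at all 3 times and rose in the line labelled Tbc1d23 at 3 and 5 h. The zipper probe was not called in the line labelled Tbc1d23 (-1.07, -0.06 and -0.12 at 1, 3 and 5 h). With the mean of both probes that line's response was 0.22 at both later times (adjusted p = 0.6 and 0.666), and the difference between responses at 1 h was 0.29 (adjusted p = 0.96). Mef2c gave 1.31 and 1.44 ± 0.27 at 3 and 5 h. Cebpd gave -1.53 and -1.72 ± 0.24 at 3 and 5 h, Spi1 gave -1.37 ± 0.32 at 3 h (adjusted p = 0.00437), and Mitf gave -1.15 at both times. Tfec gave -2.73 ± 0.86 at 5 h (adjusted p = 0.0257). At 5 h 8 factors were called with the replicate as a block, where 39.7% of all genes were, the added ones being Spi1 (-0.60, adjusted p = 0.0481), Cebpb (-0.77, adjusted p = 0.0133) and Maf (-0.55, adjusted p = 0.0474). At 1 h the block added Cebpb (-0.83, adjusted p = 0.0437). With each array scaled to its median, 6 calls were lost (adjusted p 0.0623 to 0.486). They were Cebpa at 1 h (1.48), Spi1 at 3 h (-0.79), Cebpd at 3 and 5 h (-0.95 and -1.43) and Mitf at 3 and 5 h (-0.57 and -0.86), where the median of all genes was 0.424, 0.553 and 0.285 at 1, 3 and 5 h. Within the shared run of slides 6 calls were lost too (adjusted p 0.0567 to 0.433). They were Cebpa at 1 h (1.08), Spi1 (-1.32), Cebpd (-1.40) and Mef2c (1.15) at 3 h, and Mitf at 3 and 5 h (-1.18 and -0.71). In that run Tfec was called at 1 and 3 h (fitted -1.53 and -3.71, adjusted p = 0.0419 and 4.24e-05), but its arrays labelled Tbc1d23 there were not well above background after LPS. Tfec at 5 h lost its call with quantile normalization (-1.89, adjusted p = 0.0966). Some calls also rested on few arrays. The Mitf call was lost in 11 of 24 fits that left out 1 array at 3 h (-1.34 to -0.95 over the 24) and in 7 of 24 at 5 h (-1.43 to -0.83), and the Tfec call at 5 h in 5 of 24 (-3.37 to -2.19). These fits left 3 of the 9 factors called at 5 h without replicate 2 labelled Tbc1d23 at 5 h, replicate 3 labelled Tbc1d23 at 0 h or CAT replicate 1 at 0 h.

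The counts of the surface genes were unequal between the lines too. At 5 h of LPS 6 of 32 were higher and 3 lower in the line labelled Tbc1d23, and 19 were higher and 6 lower in the CAT line. Of all genes, 3.02% were higher and 3.33% lower in the line labelled Tbc1d23, and 18.3% and 23.3% in the CAT line. The difference between the responses was called lower for 16 and higher for 5 of them at 5 h. Of the 9 factors, 3 were called lower and 2 higher in that contrast, and 10.6 and 12.6% of all genes were.

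The order of the 8 groups also set the factors apart. For Tfec the 4 CAT groups stood above all groups labelled Tbc1d23, in the order 5, 3, 1 and 0 h, each apart from the next, and the 4 groups labelled Tbc1d23 overlapped their neighbours. Mitf, Maf and Runx1 likewise had all 4 CAT groups on top, with neighbours overlapping within each line except between 3 and 1 h of the CAT line for Mitf. Spi1 was highest in the CAT line at 3 h (1.98) and lowest in the line labelled Tbc1d23 at 0 h (-1.03), and the CAT group of 0 h (0.01) overlapped the group labelled Tbc1d23 of 5 h (-0.31). Cebpa was highest in unexposed CAT cells (0.58), and its lowest groups, CAT at 5 h and the line labelled Tbc1d23 at 0 and 1 h (-1.66, -1.64 and -1.57), overlapped. Cebpb groups overlapped their neighbours, except that unexposed CAT cells lay below all others.

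Some probes of the same gene differed, among them those of Maf. Its probe A_51_P405167 lies nearer the 3′ end (chr8:118227736-118227795, minus strand, mm9) than the brightest probe (chr8:118231607-118231666), and it was not well above background on any array labelled Tbc1d23 or on any CAT array at 0 and 1 h. In the CAT line it read -0.57, -0.43 and -0.79 at 3 h and 1.95, 2.32 and 2.49 at 5 h. In the line labelled Tbc1d23 it read -6.07, -6.37 and -6.48 at 3 h and -6.29, -6.76 and -6.68 at 5 h. The CAT line was thus at least 17.1-fold higher at 3 h and at least 124-fold higher at 5 h than at 0 h (adjusted p = 1.93e-12 and 5.58e-15, over 21963 probes). The line labelled Tbc1d23 was at least 14.1-fold lower at 3 h and at least 122-fold lower at 5 h than the CAT line (adjusted p = 4.16e-12 and 5.84e-15). The brightest Maf probe showed no called LPS response in the CAT line at the same times (-0.21 and 0.28). The remaining Maf probes did not pass the filter, and their highest CAT values at 5 h were -4.51 and -4.60.

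**Figure D4:**
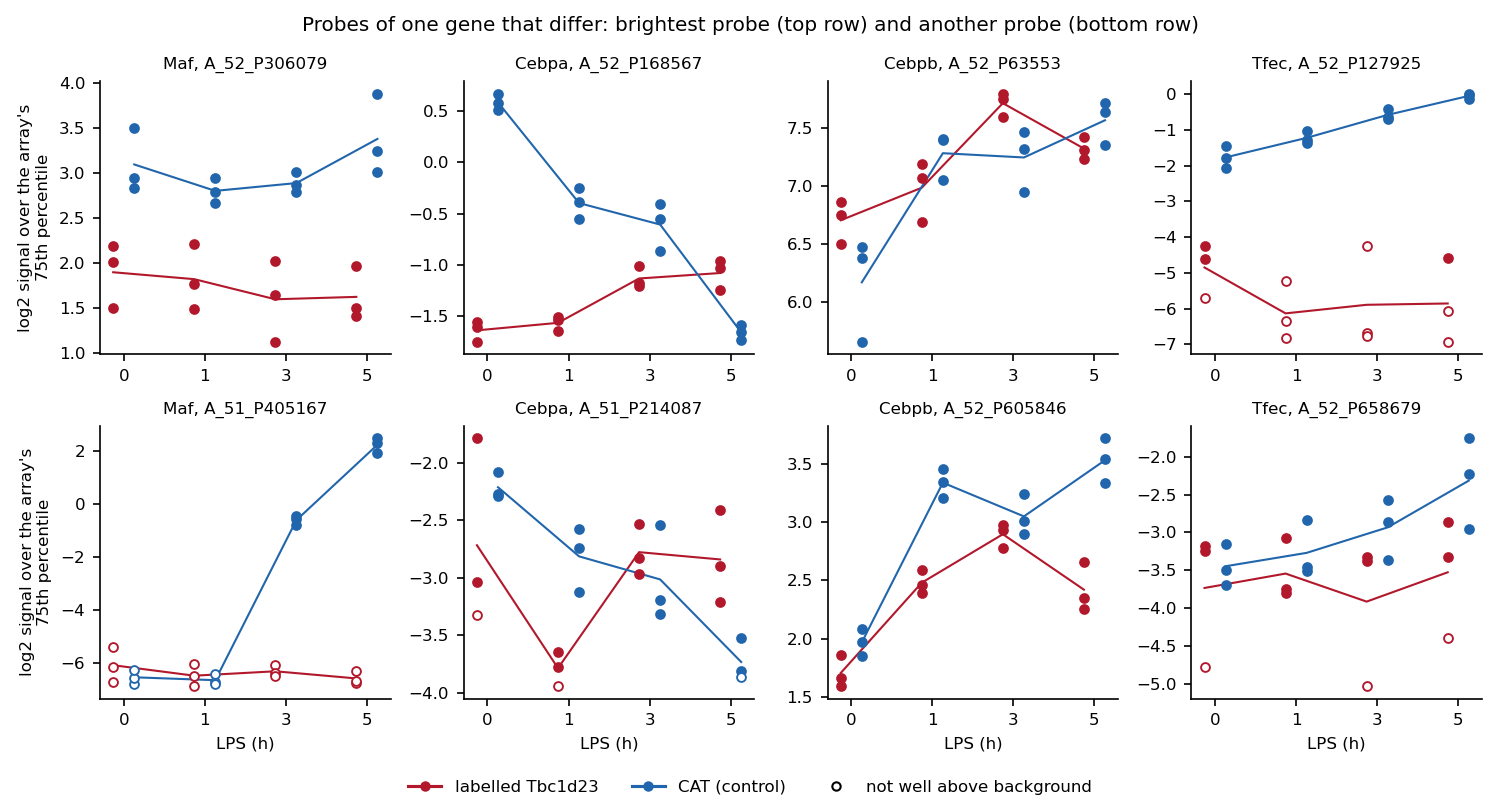
Levels on every array (log2 signal over the array's 75th percentile) of the brightest probe (top) and another probe (bottom) of Maf, Cebpa, Cebpb and Tfec, against hours of LPS; open points were not well above background. The lower Maf probe leaves background only in CAT cells (blue) at 3 and 5 h, while the upper Maf probe separates the lines at all 4 times.

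The zipper probe of Cebpa (A_51_P214087, sequence above) was faint. Its line difference was -0.50 ± 0.30 at 0 h and 0.23 at 3 h, neither called, -0.97 at 1 h and 0.89 at 5 h, both called. It thus shared the crossing of the brightest probe at 5 h, and its CAT response was -0.80 at 3 h and -1.52 at 5 h, both called. Replicate 1 labelled Tbc1d23 at 0 h read -1.79, against -3.32 and -3.04 in the other replicates of that group. The zipper probe of Cebpb (A_52_P605846, sequence above) gave lower line differences than the brightest Cebpb probe did. At 1 h it read 2.39, 2.59 and 2.46 in the line labelled Tbc1d23, against 3.35, 3.46 and 3.21 in the CAT line. At 5 h it read 2.25, 2.66 and 2.35 in the line labelled Tbc1d23, against 3.34, 3.72 and 3.54 in the CAT line. The groups are apart at both times, with differences of -0.86 ± 0.13 and -1.11 ± 0.13 (adjusted p = 2.99e-05 and 8.96e-07), where the brightest probe was not called. With the mean of both probes, Cebpb differed by -0.24 averaged over times (adjusted p = 0.00707), against 0.11 with the brightest probe.

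The other probe of Tfec (A_52_P658679, sequence above) showed little of the gap seen with the brightest probe. It was well above background on 9 of 12 arrays labelled Tbc1d23, among them all 3 at 1 h, and on all 12 CAT arrays. It differed by -0.28, -0.27 and -0.98 at 0, 1 and 3 h, none called, and by -1.21 ± 0.50 at 5 h (adjusted p = 0.0483). At 5 h it read -2.86, -4.39 and -3.33 in the line labelled Tbc1d23, against -2.23, -1.76 and -2.96 in the CAT line, and the groups overlap. So the size of the Tfec difference depends on the probe. The values of the other probe were negative at all 4 times but were called at 5 h only. The second Mef2c probe (A_52_P282110) did not pass the filter.

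Tfec had the widest fitted line difference of the 9 by brightest probe, so the 250 bases before its start site are shown (chr6:16898442-16898691, minus strand, GRCm38.p6, RefSeq), with the letters of the motifs searched in capitals. Whether this promoter has a part in the difference was not tested.
Tfec promoter: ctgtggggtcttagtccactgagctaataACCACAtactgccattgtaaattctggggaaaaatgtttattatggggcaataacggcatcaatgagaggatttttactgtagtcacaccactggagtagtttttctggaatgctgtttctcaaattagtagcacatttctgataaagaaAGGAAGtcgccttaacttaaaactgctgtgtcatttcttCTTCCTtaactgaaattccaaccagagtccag
The motifs were AGGAAG (the core bound by PU.1 and other Ets factors), TTGCNNAA (C/EBP), CACGTG and CATGTG (MiT), TGTGGT (Runx) and TGCTGA (Maf), on both strands, and no 2 of the matches shown overlap. AGGAAG occurs on the sense strand starting 71 bases before the start site and on the other strand starting 32 bases before it, and TGTGGT on the other strand 221 bases before it. Of all 32851 promoter windows of that length, 29.5% hold AGGAAG and 14% hold TGTGGT, and of the 25 windows of 23 surface genes 56% and 16% do. Of the 11 windows of 6 members in the RefSeq table (Cebpa, Cebpb, Mef2c, Mitf, Runx1 and Tfec), 27.3% hold AGGAAG and 18.2% hold TGTGGT. TTGCNNAA is in 9.56% of all windows, 20% of the surface genes' and 9.09% of the members'. CACGTG is in 6.02, 0 and 9.09%, CATGTG in 12.3, 16 and 0%, and TGCTGA in 16.1, 28 and 27.3% of these windows. A match describes the letters of the window and is no evidence of binding.

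The genes whose 8 group means followed each factor most closely were taken from 9630 symbols well above background on all arrays. They are given by Pearson's r over the 8 group means, as a description, since the groups share lines and slides. Bag6 (0.989) and Tug1 (0.988) were nearest to Spi1, Nt5c3b (0.973) and Pycrl (0.972) to Cebpa, and Rnf111 (0.968) and Rab11fip1 (0.965) to Cebpb. Sik3 (0.989) and Nfkbil1 (0.987) were nearest to Cebpd, Grin2d (0.996) and Pgam1 (0.995) to Maf, and Pfkl (0.995) and Ccdc91 (0.992) to Runx1. Fam13c (0.996) and Anubl1 (0.994) were nearest to Mef2c, Rgl3 (0.995) and Gpr161 (0.994) to Tfec, and S100a10 and Rab3ip (0.998 each) to Mitf. No gene was named for more than 1 factor.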

How the data were processed

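Per the file headers, the deposited scanner files hold spot intensity from Agilent Feature Extraction 10.7.1.1, and the submitters' processing notes name Agilent Feature Extraction, RMA and Partek. The deposited log2 values per probe, whose scale was found from the values, served as an alternative only (Spearman correlation with the processed signal at least 0.9997 per array). From 43379 spots of 41174 probes on 24 arrays, outlier spots were left out and spots of a probe averaged. The processed signal was taken as log2 minus the array's 75th percentile. The filter on dim probes asked for a signal well above background on every array of some group, which 21963 probes met, and a gene is its probe with the highest mean (15098 genes). Names come from the files, and 25097 probes took a current symbol through accessions in the GRCm38.p6 gene table.

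Group means were fitted with limma 3.58.1 (R 4.3.3, data.table version 1.17.8; lmFit, eBayes), with a Benjamini-Hochberg adjusted p under 0.05 as the call, over genes, or over probes for values of further probes. The procedure was tested on simulated data. The members, lists and motifs were chosen with earlier results of these data known. All members are named; of each list at most the 4 largest and 4 smallest called differences at 0 h are, and for each member the 2 genes with the closest group means. Other cell types' markers are named beyond that rule.

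Same-numbered arrays of a line deviated together (r = 0.185 to 0.826 over 36 pairs), and the slide they share is recorded in the file headers, so the replicate number pairs samples within a line. Between lines same-numbered arrays did not (r = -0.435 to 0.03). The replicate block was fitted within each line for LPS responses and for the difference between them. For line differences it was fitted across the lines. No 2 arrays agreed closely enough to be copies, and the number of arrays limits the precision. Alternatives covered scaling, background correction, filters, probes, slides and single arrays. Some genes of the lists are counted but not reported by name here.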

Additional observations from a re-analysis of the deposited data

Results flagged for a closer look

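These results were singled out because the LPS response differed between the lines by a test of the difference itself (limma, adjusted p under 0.05), given as the response of the line labelled Tbc1d23 minus that of the CAT line. At 1 h Cebpa gave 1.06. At 3 h Spi1 gave -1.37, Cebpa 1.70, Cebpd -1.53, Mef2c 1.31 and Mitf -1.15. At 5 h Cebpa gave 2.81, Cebpd -1.72, Mef2c 1.44, Tfec -2.73 and Mitf -1.15. Among further probes, Maf probe A_51_P405167 gave -6.17 at 3 h and -9.29 at 5 h, fitted values that rest on arrays at background. Cebpb probe A_52_P605846 gave -0.84 and Cebpa probe A_51_P214087 gave 1.40, both at 5 h. Tfec rests in part on arrays labelled Tbc1d23 that were not well above background.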

How the results depend on the processing

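Line differences of the factors kept their counts within 1.5 times under every alternative run, and so did the surface genes lower at 0 h (17 to 20 with 1 array left out). Counts of factors called for LPS responses moved more, and are given with the share of all genes called under the same setting. For the line labelled Tbc1d23 at 5 h, 2 were called, against 4 with quantile normalization (7.67%), 4 with the deposited values (7.65%), 0 with median scaling (1.47%), 1 within the run of slides that holds both lines (2.4%), 5 with the slide as a random block (15.6%) and 5 with the replicate block (15.6%). At 3 h that line had 3, against 1 within the shared run (3.05%), where it has 1 array per time. The call within that run is Tfec at both times, on arrays not well above background after LPS. Median scaling gave 0 for the CAT line at 1 h (2.78%), and 0, 2 and 3 for the difference between responses at 1, 3 and 5 h (0.464, 7.34 and 8.92%). That difference was called for 0 factors at 1 h with the mean of probes (2.58%), 2 with the random block (6.17%) and 2 with the replicate block (5.82%), for 2 at 3 h within the shared run (10.9%), and for 8 at 5 h with the replicate block (39.7%). Leaving out 1 array gave 3 to 6 factors for it at 5 h (20.4 to 23.9%). Reversed were Cebpb at 0 h with median scaling (-0.01), Cebpb averaged over times with the mean of probes (-0.24) and the Maf response of the CAT line at 3 h with the mean of probes (2.86), which takes in the probe that left background there. For the others the cause was not tested. The planned normexp correction could not be fitted on 6 arrays, which took the median parameters of the other arrays. That repair and the fits without the slides of replicates 1 and 3 labelled Tbc1d23 were chosen after seeing the data. Apart from the calls given in the report, the replicate block changed no other call. Probes near background carry little information, which limits Tfec and the fainter probes.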
